A study of Mus musculus with 8 samples.

Results

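The genes described here are 10 members of the major histocompatibility complex (MHC) class I and class II antigen presentation pathways, measured by RNA sequencing in whole embryonic mouse hearts: H2-Ab1, H2-Aa, H2-Eb1, Cd74, H2-K1, H2-D1, B2m, Tap1, Psmb8 and Psmb9. H2-Ab1 was chosen by its rise in mutant hearts at E9.5, and the other 9 were named with it to ask whether that rise was shared by genes of the same pathway. The levels of H2-Ab1 at E9.5 are therefore given as a description with no test. All 10 symbols were found among the 24385 gene symbols of the deposited table, and 8 of the 10 reached the mean of 1 FPKM that was required for testing, as did 10018 genes in all. FPKM counts fragments per kilobase of transcript scaled to sequencing depth, so a level is already divided by gene length. Tap1, with a mean of 0.278 FPKM over the 8 libraries, and Psmb9, with 0.933 FPKM, did not reach it and are described by their values alone.

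The 8 libraries came from 4 groups of 2 heart samples each, on the C57BL/6 background. WT embryos carried Dgcr8 loxP/loxP and Rosa26 mT/mG/+ with no Cre allele, so the floxed Dgcr8 alleles and the membrane reporter were shared by every group. cKO embryos carried Mesp1 Cre/+ in addition, which deletes Dgcr8, a subunit of the microprocessor that cuts primary microRNA transcripts, in the descendants of Mesp1-expressing cardiovascular progenitors. Cells of the heart tube and its surroundings that never expressed Mesp1 keep Dgcr8 in this model. Hearts of each genotype were taken at embryonic day 8.5 (E8.5) and at E9.5, with 2 libraries per group. The comparisons were cKO against WT at each stage, E9.5 against E8.5 within each genotype, and the difference between the cKO effects at the 2 stages. In whole hearts, fewer cells of a type and less RNA per cell cannot be told apart.

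MHC class II molecules are dimers of an alpha and a beta chain that present peptides from the endocytic route to CD4 T cells. H2-Aa and H2-Ab1 encode the alpha and beta chains of the I-A molecule, H2-Eb1 encodes the beta chain of I-E, and Cd74 encodes the invariant chain that holds new class II dimers until they reach the endosome. These genes are usually transcribed together under the coactivator Ciita in dendritic cells, B cells and macrophages. MHC class I molecules, here the heavy chains H2-K1 and H2-D1 bound to the light chain B2m, present cytosolic peptides on most nucleated cells. Psmb8 and Psmb9 encode catalytic subunits of the immunoproteasome that cuts those peptides, and Tap1 encodes part of the transporter that carries them into the endoplasmic reticulum. Both class I genes and the immunoproteasome genes are known targets of interferon signalling.

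Promoter windows from RefSeq on GRCm38.p6, from 250 bases before to 50 bases after the transcript start, were found for 8 of the 10 members, all but H2-Ab1 and Cd74. The windows of H2-Aa and H2-Eb1 are printed because these genes had their highest and lowest E8.5 levels in the same libraries, and those of H2-K1 and H2-D1 because both heavy chains were higher in the 2 cKO libraries at E9.5. Each runs 5′ to 3′ on the strand of its gene, and capitals mark 4 short motifs searched on both strands, the class II Y box CTGATTGG, the X-box core CTAGCAAC, a kB site GGGATTCCC and an interferon response element core TTTCACTTC. The Y box letters contain an inverted CCAAT motif, and no motif overlaps another one in these windows.
H2-Aa, chr17:34287774-34288073, minus strand: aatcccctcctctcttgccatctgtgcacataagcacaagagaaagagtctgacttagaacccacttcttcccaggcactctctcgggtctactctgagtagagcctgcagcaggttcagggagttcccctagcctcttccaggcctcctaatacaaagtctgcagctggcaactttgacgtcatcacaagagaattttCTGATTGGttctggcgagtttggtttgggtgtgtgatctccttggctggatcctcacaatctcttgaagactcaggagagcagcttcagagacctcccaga
H2-Eb1, chr17:34305617-34305916, plus strand: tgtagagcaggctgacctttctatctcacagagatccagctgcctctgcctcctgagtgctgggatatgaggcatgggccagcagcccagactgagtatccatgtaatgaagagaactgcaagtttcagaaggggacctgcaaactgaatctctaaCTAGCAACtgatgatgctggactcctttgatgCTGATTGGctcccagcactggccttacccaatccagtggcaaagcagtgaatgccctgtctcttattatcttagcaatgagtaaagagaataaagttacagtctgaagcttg
H2-K1, chr17:34000298-34000597, minus strand: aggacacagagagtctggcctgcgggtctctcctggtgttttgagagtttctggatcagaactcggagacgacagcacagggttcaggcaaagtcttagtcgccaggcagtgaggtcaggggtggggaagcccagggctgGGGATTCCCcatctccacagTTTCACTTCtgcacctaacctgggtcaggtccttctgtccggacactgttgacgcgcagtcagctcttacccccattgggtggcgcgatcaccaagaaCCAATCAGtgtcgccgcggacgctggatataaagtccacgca
H2-D1, chr17:35262844-35263143, plus strand: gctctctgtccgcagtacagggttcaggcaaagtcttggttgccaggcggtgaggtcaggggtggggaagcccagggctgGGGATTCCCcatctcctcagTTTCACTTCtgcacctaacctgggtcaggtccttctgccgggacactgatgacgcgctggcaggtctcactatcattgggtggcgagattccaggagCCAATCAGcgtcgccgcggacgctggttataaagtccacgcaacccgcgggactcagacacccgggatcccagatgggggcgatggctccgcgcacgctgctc

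The Y box letters stood at -51 to -44 from the start in H2-Aa and at -62 to -55 in H2-Eb1, both on the strand of the gene. The X-box core letters were found at -94 to -87 in H2-Eb1 and in no other member's window. In H2-K1 the kB letters stood at -110 to -102 and the interferon response core at -90 to -82, and in H2-D1 they stood at -170 to -162 and at -150 to -142. From a second start that RefSeq lists for H2-K1 the same letters stood at -124 to -116 and at -104 to -96. Between the kB and the interferon motif lay 11 bases in both genes. The Y box letters also occurred on the opposite strand in H2-K1, H2-D1 and Tap1, and on the gene's strand in Psmb9. The windows of Tap1 and Psmb9, which are transcribed away from each other, share 275 bases. No motif was found in the windows of B2m and Psmb8. Over all 32851 windows of the same length, 4.1% held the Y box letters, 1.32% the X-box core, 0.353% the kB letters and 0.505% the interferon response core. A match is only a run of letters, and no binding was measured.

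Depth and library makeup differed between the libraries. Relative depth, read from the lowest values in each library, ranged from 1.0 to 1.451, and entries with loci under 300 bp took 15.7% to 54.5% of the summed FPKM. Dgcr8 was lower in both cKO libraries than in both WT libraries at each stage, with 1.64 and 4.67 FPKM against 7.10 and 8.60 FPKM at E8.5, and with 1.15 and 1.77 FPKM against 3.49 and 3.23 FPKM at E9.5. Cardiomyocyte markers summed to 25970 to 81210 FPKM, so heart muscle transcripts were abundant in every library. The E8.5 libraries also held transcripts of the maternal decidua. Prl8a2, a decidual prolactin-family hormone, reached 448.8 FPKM in E8.5 WT replicate 1, 1141 FPKM in E8.5 WT replicate 2 and 5104 FPKM in E8.5 cKO replicate 2, and was 9.95 FPKM in E8.5 cKO replicate 1. Uterine natural killer granzymes summed to 505.2 FPKM in E8.5 WT replicate 1 and to between 0.532 and 2.41 FPKM in each of the other libraries. Replicates were 1.5-fold or more apart in 38.5% of the tested genes in E8.5 cKO, against 13.6% in E8.5 WT, 19.6% in E9.5 WT and 16.5% in E9.5 cKO.

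At E9.5, H2-Ab1 was high in cKO hearts while H2-Aa, H2-Eb1 and Cd74 were near 0. H2-Ab1, listed on chromosome 17 from 34263227 to 34269418, measured 2.29 and 3.17 FPKM in E9.5 WT hearts, against 63.1 and 37.0 FPKM in E9.5 cKO hearts. The group means were 2.73 ± 0.625 FPKM in WT and 50.1 ± 18.5 FPKM in cKO (SD, n = 2 each), a ratio of 18.4 and a log2 change of FPKM + 1 of 3.74 (SE 0.31). At E8.5 it measured 16.2 and 14.5 FPKM in WT hearts, against 11.8 and 10.7 FPKM in cKO hearts. The order of the group levels was therefore E9.5 cKO, E8.5 WT, E8.5 cKO and E9.5 WT, with no overlap between neighbours in that order, although the step between the E8.5 groups did not pass the test. An FPKM value is 1 number per gene, so these levels do not show where in H2-Ab1 the reads fell or whether they covered its whole transcript. The 4 E8.5 libraries lay within 1.52-fold of each other in H2-Ab1, and their decidual and granzyme transcripts differed widely. The part of decidual or immune cells in these H2-Ab1 levels was not tested.

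**Figure D1:**
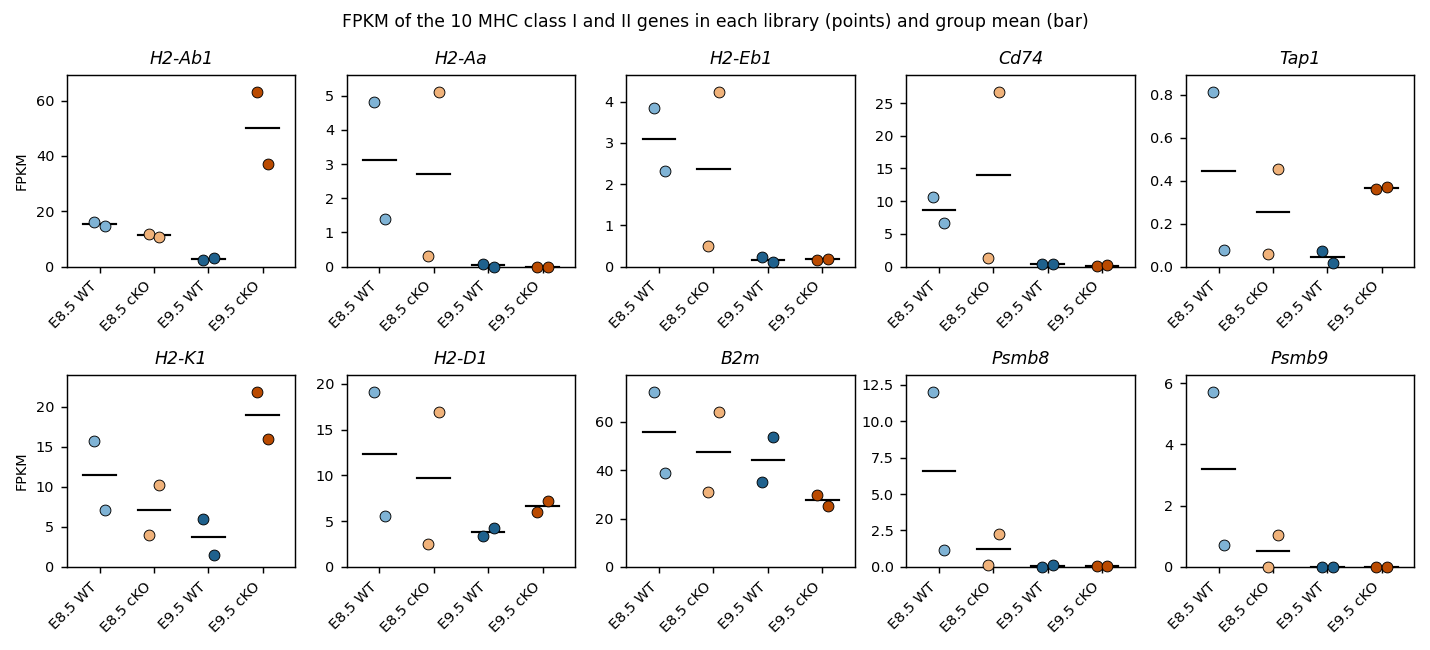
FPKM of the 10 genes, 1 panel per gene with its own axis from 0, in the 2 libraries (points) of the 4 groups, with the group mean as a bar. H2-Ab1 and H2-K1 are highest in the E9.5 cKO libraries, while H2-Aa, H2-Eb1, Cd74, Psmb8 and Psmb9 lie at or near 0 in all E9.5 libraries and spread widely at E8.5.

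The alpha chain gene H2-Aa was listed at 0.0747 and 0 FPKM in E9.5 WT and at 0 in both E9.5 cKO libraries. No fold is given for it, because the cKO libraries were at 0. H2-Eb1 measured 0.220 and 0.102 FPKM in WT hearts, against 0.160 and 0.186 FPKM in cKO hearts, so the groups overlapped. Cd74 measured 0.423 and 0.342 FPKM in WT hearts, against 0.0968 and 0.214 FPKM in cKO hearts, with both cKO libraries the lower. None of these class II genes reached 0.5 FPKM in any E9.5 library, while H2-Ab1 reached 63.1 FPKM. The level of H2-Ab1 was 10.4 and 31.1 times that of H2-Eb1 in the E9.5 WT libraries and 394.3 and 198.7 times in the cKO libraries. Their log2 changes of FPKM + 1 were -0.05 (SE 0.68) for H2-Aa, 0.02 (SE 0.52) for H2-Eb1 and -0.26 (SE 0.93) for Cd74, with limma adjusted p-values of 0.989, 0.997 and 0.945. On this scale a pseudocount of 1 shrinks the change of genes near 0 toward 0.

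Among the class I genes, H2-K1 came closest to the pattern of H2-Ab1. H2-K1 measured 5.93 and 1.45 FPKM in E9.5 WT hearts, against 21.8 and 16.0 FPKM in E9.5 cKO hearts, so both cKO libraries were above both WT libraries. Its mean was 3.69 ± 3.17 FPKM in WT and 18.9 ± 4.10 FPKM in cKO (SD, n = 2 each), a ratio of 5.13. The log2 change was 2.26 (SE 0.60), with an unadjusted limma p of 0.00543 and an adjusted p of 0.143 over all tested genes, so H2-K1 was not called. H2-D1 measured 3.35 and 4.27 FPKM in WT hearts, against 6.05 and 7.15 FPKM in cKO hearts, also without overlap. Its ratio of means was 1.73, a change of 0.66 on the log2 scale (SE 0.76, limma adjusted p = 0.746). The light chain gene B2m went the other way, with 34.9 and 53.8 FPKM in WT hearts, against 29.7 and 25.3 FPKM in cKO hearts. On the log2 scale it changed by -0.64 (SE 0.44, limma adjusted p = 0.539). As a share of the B2m level, H2-K1 stood at 0.170 and 0.0269 in the E9.5 WT libraries, at 0.735 and 0.635 in the cKO libraries, and between 0.128 and 0.219 at E8.5.

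Tap1, Psmb8 and Psmb9, which supply peptides, were under 0.5 FPKM in every E9.5 library. Tap1 measured 0.0726 and 0.0186 FPKM in E9.5 WT hearts, against 0.363 and 0.369 FPKM in E9.5 cKO hearts. Both cKO libraries were higher, at a level that was too low to be tested. In multiples of its lowest depth-weighted value these were 3.0 and 1.0 in WT and 16.47 and 17.99 in cKO, so the WT values may rest on very few reads. Tap2, the partner subunit of the same transporter, measured 0.0282 and 0.0217 FPKM in WT hearts, against 0.0513 and 0.0717 FPKM in cKO hearts. Psmb8 was listed at 0 and 0.0977 FPKM in WT and at 0.0576 and 0.0535 FPKM in cKO, a difference of 0.01 on the log2 scale (SE 0.78, limma adjusted p = 1.0). Psmb9 was listed at 0 in all 4 E9.5 libraries. Psmb9 shares most of its promoter window with Tap1, and of the pair only Tap1 had values above 0 at E9.5.

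Over the members other than H2-Ab1, 0 of the 7 tested were called between E9.5 cKO and E9.5 WT, where a call required a limma adjusted p under 0.05 and a change of at least 1.5-fold. Of all 10018 tested genes, 0.17% were called higher and 0.00998% lower. By the unadjusted limma p, 1 of the 7 was under 0.05, H2-K1, beside 15.7% of all tested genes. Both cKO libraries were above both WT libraries for 2 of the 7, H2-K1 and H2-D1, beside 21.0% of all tested genes. Both were below for 2 of the 7, Cd74 and B2m, beside 31.1% of all tested genes. Over all tested genes the median log2 change was -0.07. Of the 7, H2-Aa, H2-Eb1, Cd74 and Psmb8 were under 0.5 FPKM in every E9.5 library and reached the mean of 1 FPKM through their E8.5 values, so with a pseudocount of 1 their E9.5 changes had to lie near 0. The counts over the 7 therefore carry information at E9.5 mainly for H2-K1, H2-D1 and B2m.

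**Figure D2:**
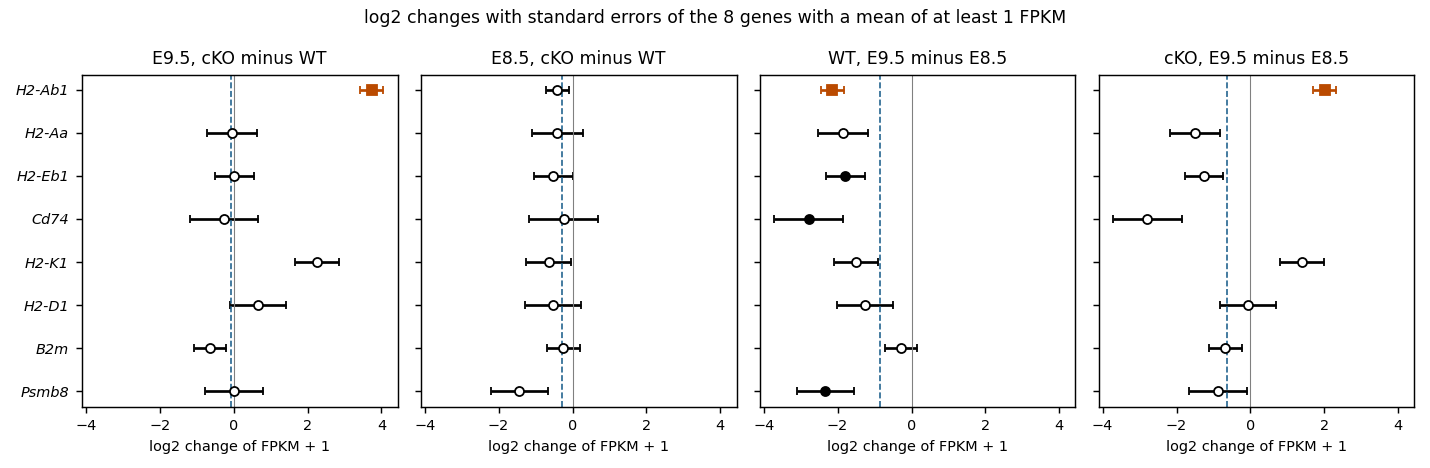
log2 changes of FPKM + 1 of the 8 members with a mean of at least 1 FPKM in the 4 comparisons, with standard errors from limma as bars. Filled circles passed the test, open circles did not, squares mark values of H2-Ab1 that were not tested because they chose it, and the dashed line is the median change of all 10018 tested genes; at E9.5 H2-Ab1 stands at 3.74 and H2-K1 at 2.26 while the other 6 lie between -0.64 and 0.66.

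H2-Ab1, H2-Aa, H2-Eb1, Psmb8, Psmb9 and Tap1 lie close together in the MHC of chromosome 17, so the entries around H2-Ab1 were read in their order along the chromosome. Of the 16 other entries with a locus within 150 kb of that of H2-Ab1, 15 were at or below 0.4 FPKM in every E9.5 library, and 2 were at 0 in every library of the series. The exception was Brd2, a bromodomain protein of most cell types that lies among the class II genes. Brd2 measured 16.0 and 16.0 FPKM in E9.5 WT hearts, against 13.9 and 12.5 FPKM in E9.5 cKO hearts. The nearest tested neighbours were H2-Aa, whose listed start is 19.5 kb from that of H2-Ab1, and H2-Eb1 at 42.6 kb, both near 0 at E9.5. H2-Ab1 stood at 0.143 and 0.199 times the level of Brd2 in E9.5 WT and at 4.55 and 2.96 times in E9.5 cKO. Among these neighbours both E9.5 cKO libraries were above both WT libraries for Tap1 and Tap2, and below them for H2-DMa and Brd2. Tap1, Tap2 and H2-DMa were at levels under 0.4 FPKM. Of all tested genes, 21.0% were higher in both cKO libraries and 31.1% lower in both.

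**Figure D3:**
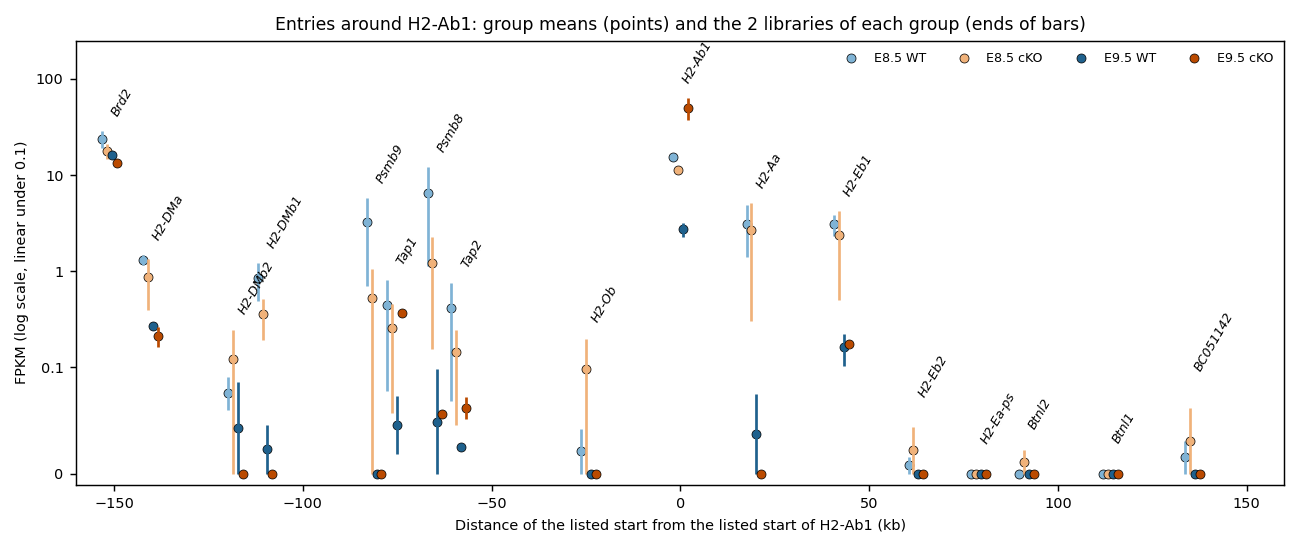
FPKM (log scale, linear under 0.1) of H2-Ab1 and the 16 entries around it against the distance of their listed starts in kb. Points are group means and bars join the 2 libraries of each group; at E9.5 only H2-Ab1 and Brd2 stand above 0.4 FPKM.

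At E8.5, no member passed the test between cKO and WT. H2-Ab1, whose E8.5 levels did not choose it, was lower in both cKO libraries than in both WT libraries, with a ratio of means of 0.731 and a change of -0.42 on the log2 scale (SE 0.31, limma adjusted p = 0.627). It came to -0.08 after median-ratio scaling and to -0.09 after quantile normalization. The changes of the other 7 tested members lay between -0.24 for Cd74 and -1.44 for Psmb8, all with overlapping libraries. On the FPKM scale the mean of Cd74 was the higher one in cKO, with a ratio of 1.62. Without E8.5 cKO replicate 1 the changes of H2-Aa, H2-Eb1, Cd74, H2-D1 and B2m turned to 0.71, 0.38, 1.55, 0.65 and 0.27, and without E8.5 WT replicate 1 those of H2-Aa, Cd74, H2-D1 and B2m turned to 0.24, 0.05, 0.27 and 0.19. Their direction thus depended on single libraries. That of Psmb8 rested on E8.5 WT replicate 1, the library rich in granzymes, and was -0.13 without it and -2.74 without E8.5 WT replicate 2, with no call in either case. H2-Aa, H2-Eb1 and Psmb8 had means under 1 FPKM outside the E8.5 WT group and so were tested only through 1 arm of this comparison, which favours a lower value in cKO. Their changes are given as values and support no direction. Adjusted p-values from limma ranged from 0.596 to 0.927. Of the 8 tested members 0 were called and 0 had an unadjusted limma p under 0.05, while 0.00998% of all tested genes were called higher, 0.0% lower and 7.81% had such a p. Both cKO libraries were below both WT libraries for 1 of the 8, H2-Ab1, beside 40.1% of all tested genes, and above them for 0 of the 8, beside 2.54%. Over all tested genes the median log2 change was -0.28. With E8.5 WT replicate 1 and E8.5 cKO replicate 2 both left out, which leaves 1 library in each arm and removes the library in which Cd74 was highest, Cd74 was called lower in cKO, at -1.74. It was 0.12 after median-ratio scaling and 0.19 after quantile normalization of all libraries, with no call.

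At E8.5 the members other than H2-Ab1 differed more between the libraries of the same group than H2-Ab1 did. Cd74 measured 10.6 and 6.72 FPKM in E8.5 WT hearts, against 1.31 and 26.7 FPKM in E8.5 cKO hearts. H2-Aa measured 4.83 and 1.40 FPKM in WT hearts, against 0.302 and 5.11 FPKM in cKO hearts, and H2-Eb1 measured 3.86 and 2.31 FPKM in WT hearts, against 0.499 and 4.24 FPKM in cKO hearts. For all 3 genes E8.5 cKO replicate 2 was the highest library and E8.5 cKO replicate 1 the lowest. Highest over lowest E8.5 library was 20.4 for Cd74, 16.95 for H2-Aa and 8.48 for H2-Eb1, against 1.52 for H2-Ab1.

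Class I and peptide supply genes had the same low library but another high one. H2-K1 measured 15.8 and 7.12 FPKM in E8.5 WT hearts, against 3.95 and 10.3 FPKM in E8.5 cKO hearts. H2-D1 measured 19.1 and 5.55 FPKM in WT hearts, against 2.46 and 16.97 FPKM in cKO hearts. B2m measured 72.2 and 39.0 FPKM in WT hearts, against 30.9 and 64.1 FPKM in cKO hearts. These 3 genes were each highest in E8.5 WT replicate 1, next in E8.5 cKO replicate 2 and lowest in E8.5 cKO replicate 1. The immunoproteasome genes were also highest in E8.5 WT replicate 1, with Psmb8 at 11.99 and 1.13 FPKM in WT hearts, against 0.154 and 2.27 FPKM in cKO hearts. Psmb9 measured 5.71 and 0.703 FPKM in WT hearts, against 0 and 1.06 FPKM in cKO hearts, and Tap1 measured 0.812 and 0.0779 FPKM in WT hearts, against 0.0571 and 0.455 FPKM in cKO hearts. H2-Ab1 was the member that varied least over the 4 E8.5 libraries.

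Some marker lists had their high and low E8.5 libraries in common with these values. Summed over 19 macrophage markers the level was 115.3 and 40.1 FPKM in E8.5 WT hearts, against 12.1 and 100.8 FPKM in E8.5 cKO hearts, and the sum over H2-Aa, H2-Eb1 and Cd74 was 19.3 and 10.4 FPKM in WT hearts, against 2.11 and 36.1 FPKM in cKO hearts. Summed over 6 decidual stroma markers the level was 467.8 and 1167 FPKM in WT hearts, against 15.9 and 5153 FPKM in cKO hearts. Over 21 interferon response genes it was 184.8 and 42.4 FPKM in WT hearts, against 33.9 and 100.7 FPKM in cKO hearts. E8.5 cKO replicate 1 was thus the lowest E8.5 library of all 4 sums. The highest was E8.5 WT replicate 1 for the macrophage and interferon sums and E8.5 cKO replicate 2 for the class II and decidual sums. The dendritic, B, and T and NK cell lists were also lowest in E8.5 cKO replicate 1, so that trait is not particular to the 4 sums. The 9 dendritic cell markers summed to 4.75 and 7.52 FPKM in WT hearts, against 3.99 and 5.71 FPKM in cKO hearts, and the 7 B cell markers to 0.784 and 1.76 FPKM in WT hearts, against 0.497 and 1.66 FPKM in cKO hearts, both highest in E8.5 WT replicate 2. The 12 T and NK cell markers summed to 23.9 and 2.73 FPKM in WT hearts, against 1.37 and 1.80 FPKM in cKO hearts, high in E8.5 WT replicate 1 alone. The part of decidual or immune cells in the E8.5 values of the members was not tested.

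At E9.5 the macrophage and decidual stroma sums lay below those of 3 of the 4 E8.5 libraries. Macrophage markers summed to 13.8 and 15.5 FPKM in E9.5 WT and to 18.5 and 17.7 FPKM in E9.5 cKO, of which Lyz2, lysozyme, made up 8.03 to 14.3 FPKM. Ptprc, the pan-leukocyte marker, was listed at 0 and 0.00997 FPKM in WT and at 0.0235 and 0 FPKM in cKO. The 7 B cell markers summed to at most 0.251 FPKM in any E9.5 library, and the 9 dendritic cell markers summed to 3.79 and 2.78 FPKM in WT hearts, against 3.16 and 3.85 FPKM in cKO hearts. Most of the dendritic sum came from Zbtb46 and Batf3. Zbtb46 measured 1.89 and 1.85 FPKM in WT hearts, against 2.29 and 2.53 FPKM in cKO hearts, and Batf3 1.79 and 0.688 FPKM, against 0.810 and 1.18 FPKM. The 12 T and NK cell markers summed to 1.26 and 0.535 FPKM in WT and to 0.960 and 0.815 FPKM in cKO. Lck was the largest part of that sum, at 1.03 and 0.213 FPKM in WT and at 0.595 and 0.497 FPKM in cKO. Decidual stroma markers summed to 7.58 and 18.5 FPKM in WT and to 5.98 and 4.29 FPKM in cKO, and the 7 uterine granzymes to 0.532 and 1.84 FPKM in WT and to 0.979 and 2.41 FPKM in cKO. The macrophage sum was thus higher in both cKO libraries and the decidual stroma sum lower in both, as was the interferon response sum given further on. The order of the macrophage sum rested on Lyz2, and the groups overlapped without it. Most of the decidual stroma sum was Lum, at 5.24 and 10.9 FPKM in WT hearts, against 3.23 and 2.98 FPKM in cKO hearts. Prl8a2 overlapped, at 1.23 and 5.09 FPKM in WT hearts, against 2.08 and 0.746 FPKM in cKO hearts.

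Single macrophage markers had higher or lower values in cKO hearts at E9.5, and none was called. Of the 19, 5 were listed at 0 in both cKO libraries and 3 in both WT libraries. Lyz2 measured 8.03 and 9.28 FPKM in WT hearts, against 10.7 and 14.3 FPKM in cKO hearts. Laptm5, a lysosomal protein of blood cells, measured 0.822 and 0.883 FPKM in WT hearts, against 1.87 and 0.971 FPKM in cKO hearts, and Cd68, a lysosomal protein of macrophages, measured 0.532 and 0.286 FPKM in WT hearts, against 0.844 and 0.725 FPKM in cKO hearts. These made up the 3 of the 6 tested markers that were higher in both cKO libraries, beside 21.0% of all tested genes. The 1 of the 6 that was lower in both, beside 31.1%, was Fcgr3, an Fc receptor, at 2.30 and 2.51 FPKM in WT hearts, against 1.02 and 0.475 FPKM in cKO hearts. Over all 19, most of them too low to be tested, 4 were higher in both cKO libraries and 3 lower in both. In limma 0 of the 6 were called, beside 0.17% of all tested genes called higher and 0.00998% lower. Fcgr3 was the 1 marker with an unadjusted p under 0.05, beside 15.7% of all tested genes. Tyrobp, another of the 6, was under 0.5 FPKM in every E9.5 library and reached the mean of 1 FPKM through E8.5, so its change is shrunk toward 0. The part of leukocytes in the E9.5 level of H2-Ab1 was not tested.

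**Figure D4:**
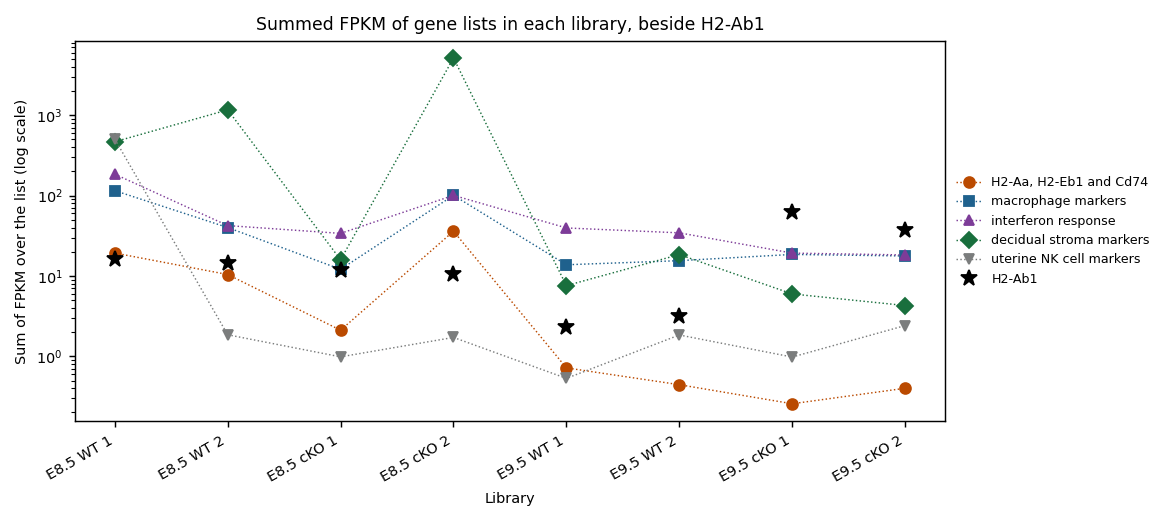
Summed FPKM on a log scale of 4 marker and response lists and of H2-Aa, H2-Eb1 and Cd74 in each of the 8 libraries, with H2-Ab1 as stars. The class II sum is 2.11 to 36.1 FPKM at E8.5 and under 1 FPKM at E9.5, while H2-Ab1 is at 63.1 and 37.0 FPKM in the E9.5 cKO libraries.

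Between E8.5 and E9.5 in WT hearts, H2-Eb1, Cd74 and Psmb8 were called lower, at a share near that of all genes. H2-Eb1 changed by -1.79 (SE 0.52, limma adjusted p = 0.0269), Cd74 by -2.78 (SE 0.93, limma adjusted p = 0.0414) and Psmb8 by -2.33 (SE 0.78, limma adjusted p = 0.0412) on the log2 scale. H2-Aa, at -1.85 (SE 0.68, limma adjusted p = 0.0526), and H2-K1, at -1.5 (SE 0.60, limma adjusted p = 0.0658), did not pass. Nor did H2-D1 at -1.26 or B2m at -0.29, with limma adjusted p-values of 0.180 and 0.583. In total 3 of the 7 members other than H2-Ab1 were called lower and 0 higher, beside 46.7% and 1.4% of all tested genes. Both E9.5 WT libraries were below both E8.5 WT libraries for 6 of the 7 and above them for 0 of the 7, beside 80.1% and 5.43% of all tested genes. The median log2 change over all tested genes was -0.84. Over the other 3 groups the means of H2-Aa, H2-Eb1 and Psmb8 were 0.915, 0.901 and 0.438 FPKM, so these genes were tested only through the E8.5 WT libraries in which they were high. Their direction was fixed by that, and the counts over the 7 are no support for a fall. These calls depend on the scaling of the libraries, since 0 of the 7 were called after median-ratio or quantile scaling, and on each library, since 0 or 1 were called with any of the 4 WT libraries left out. H2-Ab1 changed by -2.14 (SE 0.31), given without a test, and by -1.28 and -1.14 under those 2 scalings.

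In cKO hearts, H2-Ab1 and H2-K1 ran against the direction of most genes. H2-Ab1 changed by 2.01 (SE 0.31) from E8.5 to E9.5, given without a test, and by 2.74 with either scaling. H2-K1 changed by 1.40 (SE 0.60, limma adjusted p = 0.102), with both E9.5 cKO libraries above both E8.5 cKO libraries. Cd74 changed by -2.79 (SE 0.93, limma adjusted p = 0.0539), H2-Aa by -1.5 (limma adjusted p = 0.118) and H2-Eb1 by -1.26 (limma adjusted p = 0.0933). B2m changed by -0.68, Psmb8 by -0.88 and H2-D1 by -0.06, with limma adjusted p-values from 0.243 to 0.961. Of the 7 members other than H2-Ab1, 0 were called, beside 2.05% of all tested genes called higher and 28.5% lower. By the unadjusted limma p, 3 of the 7 were under 0.05, H2-K1, Cd74 and H2-Eb1, beside 47.0% of all tested genes. Both E9.5 libraries were below both E8.5 libraries for 5 of the 7, beside 62.7% of all tested genes, and above them for 1 of the 7, H2-K1, beside 7.05%. Over all tested genes the median log2 change was -0.64. Without E8.5 cKO replicate 1, the library with the lowest class II levels at that stage, H2-Aa, H2-Eb1 and Cd74 were called lower, at -2.61, -2.16 and -4.59. Without E8.5 cKO replicate 2, the library with the highest decidual levels, they changed by -0.38, -0.35 and -1.0 and were not called, with limma adjusted p-values of 0.543, 0.341 and 0.0524. The size of these changes thus rested on which E8.5 cKO library was kept.

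The cKO effect at E9.5 minus that at E8.5 was 4.16 on the log2 scale for H2-Ab1, given without a test, and 2.90 (SE 0.84) for H2-K1. The difference for H2-K1 had an unadjusted limma p of 0.00892 and an adjusted p of 0.551, and was not called. In limma 0 of the 7 members other than H2-Ab1 were called, with H2-K1 the 1 gene under an unadjusted p of 0.05, beside 0.0399% of all tested genes called in either direction and 7.18% under that p. The median over all tested genes was 0.18. The cKO effects of the 2 stages share no library. For B2m, Cd74, H2-Aa and H2-Eb1 the difference lay between -0.40 and 0.53, with limma adjusted p-values from 0.910 to 0.997. It was 1.2 (SE 1.07) for H2-D1 and 1.45 (SE 1.11) for Psmb8, with limma adjusted p-values of 0.841 and 0.802. H2-Aa, H2-Eb1 and Psmb8 lay near 0 at E9.5 and were tested only through E8.5 WT, so their differences are mostly the E8.5 change with its sign turned and support no direction.

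No tested gene of the class II or class I processing lists was called between the genotypes at E9.5. Ciita, the class II coactivator, was listed at 0.0389 and 0.009997 FPKM in E9.5 WT and at 0 in both E9.5 cKO libraries. Nlrc5, its class I counterpart, was listed at 0 in all 4 E9.5 libraries. H2-DMa and H2-DMb1, which load peptides onto class II dimers, measured 0.161 to 0.274 FPKM and 0 to 0.0461 FPKM at E9.5. Of the 16 genes of class II processing and regulation 6 were tested by limma, of which 0 were called between E9.5 cKO and E9.5 WT, beside 0.17% of all tested genes higher and 0.00998% lower, and 0 had an unadjusted p under 0.05, beside 15.7%. For 2 of the 6 both cKO libraries were above both WT libraries and for 0 of the 6 below them, beside 21.0% and 31.1% of all tested genes, and over all 16 for 2 and 2. Of the 6, Ctss, cathepsin S, was under 0.5 FPKM in every E9.5 library and reached the mean of 1 FPKM through E8.5, so its change is shrunk toward 0. The most abundant of them were lysosomal enzymes of many cell types, with Ctsl, cathepsin L, at 165.1 and 162.3 FPKM in WT hearts, against 90.3 and 211.2 FPKM in cKO hearts. Lgmn, an asparaginyl endopeptidase, measured 64.4 and 80.5 FPKM in WT hearts, against 95.2 and 144.1 FPKM in cKO hearts, and Ctsb, cathepsin B, measured 87.0 and 90.1 FPKM in WT hearts, against 87.4 and 141.5 FPKM in cKO hearts. Rfxank, a subunit of the factor that binds the X box, was called lower in WT hearts from E8.5 to E9.5 (log2 change -1.10, SE 0.30, limma adjusted p = 0.0227), the only call of this list in the 4 comparisons and 1 of 6 genes beside 46.7% of all tested genes. With median-ratio scaling its change was -0.26 and was not called.

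Of the 22 genes of class I loading and regulation 10 were tested by limma. Between E9.5 cKO and E9.5 WT 0 of the 10 were called, beside 0.17% of all tested genes called higher and 0.00998% lower. Canx and Pdia3, 2 of the 10, had an unadjusted p under 0.05, beside 15.7% of all tested genes. Both cKO libraries were above both WT libraries for 2 of the 10 and below for 5, beside 21.0% and 31.1% of all tested genes. Over all 22, most of them too low to be tested, these counts were 6 and 5. Tapbp, tapasin, which bridges class I heavy chains to the transporter, measured 1.96 and 1.11 FPKM in WT hearts, against 3.20 and 2.13 FPKM in cKO hearts. The chaperones that fold the heavy chains had lower values in cKO, with Calr, calreticulin, the most abundant gene of the list, at 923.5 and 863.9 FPKM in WT hearts, against 567.3 and 704.2 FPKM in cKO hearts, Pdia3 at 525.0 and 862.4 FPKM in WT hearts, against 135.3 and 249.0 FPKM in cKO hearts, and Canx at 44.4 and 130.8 FPKM in WT hearts, against 34.5 and 27.8 FPKM in cKO hearts. Between the WT stages 1 of the 10 was called lower and 1 higher, beside 46.7% and 1.4% of all tested genes. Tapbp changed by -1.49 on the log2 scale (SE 0.28, limma adjusted p = 0.0126) and Calr by 0.97 (SE 0.23, limma adjusted p = 0.0178). Tapbp was not called after median-ratio scaling or quantile normalization, at -0.74 and -0.56. Calr was called after median-ratio scaling, at 1.97 (limma adjusted p = 0.0118), and not after quantile normalization, at 0.81. Between the cKO stages 1 of the 10, Canx, was called lower, at -1.82 (SE 0.47, limma adjusted p = 0.0291), beside 28.5% of all tested genes, and was -1.08 and not called after median-ratio scaling. H2-Q2, a class I gene of the Q region, measured 3.25 and 3.73 FPKM in WT hearts, against 5.57 and 6.72 FPKM in cKO hearts. Class I genes are near copies of one another, so reads of H2-K1, H2-D1 and the H2-Q and H2-T genes could have been assigned between them, and these values are uncertain to that extent. H2-L, whose listed locus overlaps that of H2-D1, was near 0 in every library.

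The inducible proteasome genes Psmb10, Psme1 and Psme2 were measured at E9.5 while Psmb8 and Psmb9 were near 0. Psmb10, the third inducible catalytic subunit, measured 9.09 and 5.51 FPKM in WT hearts, against 8.03 and 3.99 FPKM in cKO hearts. Psme1, part of the interferon-inducible activator, measured 105.9 and 77.5 FPKM in WT hearts, against 137.0 and 154.9 FPKM in cKO hearts. In limma 0 of the 3 were called in any of the 4 comparisons. Between the genotypes, the share of all tested genes called higher was 0.17% at E9.5 and 0.00998% at E8.5. The share called lower was 0.00998% at E9.5 and 0.0% at E8.5. From E8.5 to E9.5 these shares were 1.4% higher and 46.7% lower in WT hearts, and 2.05% and 28.5% in cKO hearts. At an unadjusted limma p under 0.05 there was 1 of the 3, Psmb10, between the WT stages, beside 60.02% of all tested genes. The constitutive subunits that Psmb8 and Psmb9 replace, Psmb5 and Psmb6, measured 411.7 and 298.8 FPKM and 658.2 and 514.8 FPKM in E9.5 WT, and 350.8 and 328.5 FPKM and 520.6 and 478.5 FPKM in E9.5 cKO. Of 14 constitutive core subunits, 0 were called by limma between E9.5 cKO and E9.5 WT, where 5 alpha subunits, Psma1, Psma2, Psma3, Psma4 and Psma6, had an unadjusted p under 0.05, beside 15.7% of all tested genes. All 5 were lower in both cKO libraries, as were 8 of the 14 subunits, beside 31.1% of all tested genes, and 0 of the 14 were higher in both, beside 21.0%. From E8.5 to E9.5 in cKO hearts 6, all alpha subunits such as Psma1 (-2.39, SE 0.42, limma adjusted p = 0.0161), were called lower, beside 28.5% of all tested genes. The other 5, Psma2 to Psma6, changed by between -1.51 and -1.03. With median-ratio scaling Psma1 changed by -1.64 and none of the 6 was called, and with quantile normalization Psma1 was the 1 called, at -2.01 (limma adjusted p = 0.0373).

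No interferon gene was called between the genotypes at E9.5, and single genes lay on both sides. Of 15 interferon signalling genes 10 were tested by limma, of which 0 were called between E9.5 cKO and E9.5 WT and 0 had an unadjusted p under 0.05. Of all tested genes 0.17% were called higher, 0.00998% lower and 15.7% had such a p. The median log2 change of the 10 was 0.0, beside -0.07 over all tested genes. Irf7 was under 0.5 FPKM in every E9.5 library and reached the mean of 1 FPKM through E8.5, so its change is shrunk toward 0. For 4 of the 10, Ifngr2, Ifnar2, Irf9 and Tyk2, both cKO libraries were above both WT libraries and for 2 below them, beside 21.0% and 31.1% of all tested genes. Tyk2, a kinase of the type I interferon receptor, measured 1.46 and 1.24 FPKM in WT hearts, against 3.11 and 1.99 FPKM in cKO hearts. Its cKO effect at E9.5 minus that at E8.5 was 0.83 on the log2 scale, with an unadjusted limma p of 0.0496 and an adjusted p of 0.693. Between the WT stages 3 of the 10 were called lower, beside 46.7% of all tested genes, namely Irf7 at -1.75, Irf9 at -1.09 and Ifnar1 at -0.71 (limma adjusted p = 0.0417, 0.0293 and 0.0489), of which Irf7, with a mean of 0.546 FPKM over the other 3 groups, was tested only through the E8.5 WT libraries, so that its direction was fixed. Between the cKO stages 2 were, beside 28.5%, among them Jak1 at -0.92 (limma adjusted p = 0.0498). None of the 4 named here was called after median-ratio or quantile scaling, and Ifnar1 turned to 0.12 and 0.26. Irf1, which activates class I and Ciita promoters, measured 1.43 and 0.98 FPKM in WT hearts, against 0.95 and 1.37 FPKM in cKO hearts. Of 21 interferon response genes 5 were tested by limma, of which 0 were called and 1, Xaf1, which was lower in both cKO libraries, had an unadjusted p under 0.05, beside 15.7% of all tested genes. For 1 of the 5, Ifi35, both cKO libraries were above both WT libraries and for 3 below them, beside 21.0% and 31.1% of all tested genes, and over all 21 for 4 and 4. Ifi35, an interferon-induced protein, measured 1.005 and 1.08 FPKM in WT hearts, against 2.13 and 1.60 FPKM in cKO hearts. The median log2 change of the 5 was -0.16. Of the 5, Isg15 and Oas1a, both interferon-induced, were under 0.5 FPKM in every E9.5 library and reached the mean of 1 FPKM through E8.5. Their changes are shrunk toward 0 and hold the median near 0, and Isg15 is among the 3 that were lower in both. The summed level of all 21 was 39.6 and 34.4 FPKM in WT hearts, against 19.2 and 18.3 FPKM in cKO hearts. Ifitm3, the most abundant of them by its mean over the 8 libraries, measured 9.21 and 10.1 FPKM in WT hearts, against 4.64 and 4.17 FPKM in cKO hearts. Xaf1, a proapoptotic protein, measured 27.9 and 21.1 FPKM in WT hearts, against 10.7 and 10.98 FPKM in cKO hearts, and with Ifitm3 it made up most of the summed level. Between stages Ifi35 was called lower in WT hearts, at -1.66 (limma adjusted p = 0.0146), and Xaf1 in cKO hearts, at -1.30 (limma adjusted p = 0.0470), beside 46.7% and 28.5% of all tested genes. Neither was called after median-ratio or quantile scaling.

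The genes most like H2-Ab1 over the 8 libraries were not antigen presentation genes. By Pearson's r of log2(FPKM + 1) among the 10017 other tested genes, the 5 nearest were Proser2 (0.974), Plod3 (0.972), Ier3 (0.972), Ddit3 (0.969) and Adamtsl2 (0.967). The 8 points of each r share their libraries and fall into 4 groups, so these values are a description with no test. They include the E9.5 levels that chose H2-Ab1, so genes that rose in E9.5 cKO hearts rank high. Ier3, an immediate early response gene, measured 2.70 and 2.53 FPKM in E9.5 WT hearts, against 69.4 and 34.4 FPKM in E9.5 cKO hearts. Ddit3, the stress-induced factor CHOP, measured 4.47 and 4.41 FPKM in WT hearts, against 19.9 and 15.7 FPKM in cKO hearts. Among the members, H2-K1 ranked 165 by this measure (r = 0.801), H2-D1 ranked 1945 (r = 0.297) and H2-Eb1 ranked 4451 (r = 0.037). H2-Aa, the gene of the chain that pairs with H2-Ab1, ranked 4817 (r = 0.011), and B2m ranked 8740 (r = -0.374). Psmb8 ranked 3988 (r = 0.075) and Cd74 ranked 5564 (r = -0.043). H2-Aa, H2-Eb1, Cd74 and Psmb8 were near 0 in every E9.5 library, so their r rests mainly on their E8.5 values.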

How the data were processed

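RNA from dissected mouse hearts was made into libraries by a full-length amplification protocol, sequenced on a HiSeq2500 and aligned with BWA to mm9 per the labels and the study's methods. The deposited values are FPKM per gene, made by the authors with a program that is not given in the sources used here, and no counts come with them. Listed positions are those of GRCm38 rather than mm9: of 9513 tested genes found in RefSeq, 91.7% started within 1000 bp of their GRCm38 position. Samples of each group are described as independent biological replicates.

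Here 1 entry was kept per symbol, the one with the highest mean. limma 3.58.1 (R 4.3.3, with a variance trend, tested on simulated data) was fitted to log2(FPKM + 1), with the 4 groups of 8 libraries in 1 model and Benjamini-Hochberg adjustment over the 10018 genes whose mean reached 1 FPKM. Folds on this scale understate those of low genes. Exact permutation of 2 against 2 libraries cannot go below p = 0.333 and was not used. H2-Ab1 was left out of counts of called members except at E8.5. The members, gene lists and tests were chosen with earlier results of these data known. Genes could be named as members, as list genes that were called, were among the 3 most abundant of their list or are described by role, as entries within 150 kb of H2-Ab1, and as the 5 tested genes most correlated with H2-Ab1. Cell type marker lists are given mainly by sums, and 1 called interferon signalling gene is not reported here. Genes named for an unadjusted p under 0.05 or for libraries without overlap were named after their values were seen. Alternatives were another pseudocount, no filter, 3 other scalings, 2 other fits, a replicate block and leaving out libraries. Promoter windows were read and searched with Python 3.11.15.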

Additional observations from a re-analysis of the deposited data

Results flagged for a closer look

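The cKO effect on H2-Ab1 pointed in opposite directions at the 2 stages, with both cKO libraries below both WT libraries at E8.5 and above them at E9.5, and the difference between the effects was 4.16 on the log2 scale. The E8.5 change of -0.42 did not pass the test (limma adjusted p = 0.627), came to -0.08 after median-ratio scaling and to -0.09 after quantile normalization, and shared its direction in every library with 40.1% of all tested genes. This difference was not tested, because the E9.5 change had selected the gene.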

How the results depend on the processing

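Between E9.5 cKO and E9.5 WT the count of 0 members called held under all 12 alternatives (of 7 tested, and of 9 with no filter), and H2-Ab1 stayed between 3.36 and 4.12 and H2-K1 between 1.51 and 3.01 on the log2 scale, the latter with adjusted p-values from 0.13 to 0.788. With 1 library left out, H2-Eb1 ranged from -0.06 to 0.09 and Psmb8 from -0.06 to 0.08. At E8.5, 1 member (Cd74) was called with E8.5 WT replicate 1 and E8.5 cKO replicate 2 both left out, a choice made after seeing the data. There Cd74 and B2m turned to 0.12 and 0.11 with median-ratio scaling and to 0.19 and 0.08 with quantile normalization, and leaving out 1 library gave -1.52 to 0.71 for H2-Aa, -1.42 to 0.38 for H2-Eb1, -2.03 to 1.55 for Cd74, -1.73 to 0.65 for H2-D1, -0.76 to 0.27 for B2m, -2.74 to -0.13 for Psmb8 and -1.24 to -0.05 for H2-K1. Between the WT stages the 3 calls became 0 with no filter, 0 with median-ratio scaling, 0 with quantile normalization, 5 with FPKM rescaled to loci of at least 300 bp, and 0 to 1 without 1 library. Both scalings move the median gene from -0.84 to between -0.04 and -0.02. B2m turned to 0.69 with median-ratio scaling, to 0.46 with quantile normalization and to 0.15 without the same 2 libraries, and ranged from -0.72 to 0.15 with 1 left out. With 1 WT library left out, H2-D1 ranged from -2.07 to -0.45, H2-K1 from -2.25 to -0.75 and H2-Aa from -2.49 to -1.21. Psmb8 ranged from -3.63 to -1.02, H2-Eb1 from -2.07 to -1.51 and Cd74 from -3.07 to -2.48. Between the cKO stages the count of 0 became 2 with a pseudocount of 0.1 and ranged from 0 to 3 without 1 library. H2-D1 turned to 0.02 with that pseudocount, to 0.58 with median-ratio scaling, to 0.59 with quantile normalization and to 1.13 without the 2 libraries, with a range of -1.25 to 1.13 without 1 library, and B2m turned to 0.05 and 0.01 with the 2 scalings. The cause of these changes was not tested. A library left alone in its group is assumed to vary like the others.

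The labels do not pair hearts by number. Deviations of equally numbered libraries correlated at 0.017 at E9.5, -0.004 at E8.5, -0.116 between the WT stages and -0.047 between the cKO stages. With a replicate block the called members were 0 at E9.5, 0 at E8.5, 2 between the WT stages (H2-Eb1 and Cd74) and 0 between the cKO stages. With the WT numbers crossed between stages they were 3.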
